A study of Homo sapiens with 8 samples.

Results

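The BCL2 family decides whether the outer membrane of the mitochondrion is breached, the step that commits a cell to intrinsic apoptosis. The genes described here were BCL2, BCL2L1, MCL1, BCL2A1, BAX, BAK1, BIK, BCL2L11, BBC3 and PMAIP1. They were found by matching the Entrez identifiers of the authors' table to these symbols, and all 10 were among its 18478 genes. They were measured by RNA-seq in a pair of established lines from human melanoma, A2058 and C8161, grown in DMEM with serum. Cells of each line were transduced by retrovirus, either with ATF3, an ATF/CREB family transcription factor that cells induce under stress, or with a neomycin resistance control. The labels give 1 library for A2058 with ATF3, 1 for its control, 3 for C8161 with ATF3 and 3 for its control, but the table holds 1 combined column per C8161 arm, and whether it is a mean or comes from pooled reads is not stated. No promoter of the vector, clone or time after transduction is named in the sources used here.

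Proteins of the family fall into 3 classes. The anti-apoptotic members, BCL2, BCL-xL (from BCL2L1), MCL1 and BFL1 (from BCL2A1), bind and restrain the others. The effectors BAX and BAK (from BAK1) form the pores through which cytochrome c leaves the mitochondrion. The BH3-only members BIK, BIM (from BCL2L11), PUMA (from BBC3) and NOXA (from PMAIP1) relay stress signals by occupying the groove of the anti-apoptotic proteins or by engaging the effectors. BCL2A1 and BCL2 are known targets of the melanocyte factor MITF.

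ATF3 itself checked the labels. In C8161 it was at 62.57 RPKM with the introduced gene against 4.76 RPKM in the control, and in A2058 at 4.71 against 1.22 RPKM. RPKM scales reads by transcript length and library size, so levels of different genes can be set side by side. With 1 value per arm, there is no replicate spread and no test was run; every difference below describes these columns. Columns summed to between 470633 and 481302 RPKM. The steps between low values fitted best at a depth of about 18400000 reads in both A2058 libraries, but narrowly. The score for how closely values fell on such steps was 0.319 against 0.292 for the next best depth in the control. With ATF3 it was 0.336 against 0.279, so the depth and the read counts drawn from it are rough. The best scores of the combined C8161 columns were lower (0.166 in the control and 0.096 with ATF3), and no depth was taken from them. Melanocyte lineage markers (MITF, SOX10, PMEL, MLANA, TYR, DCT, S100B and S100A1) were all at 11.74 RPKM or more in A2058. In C8161 they summed to 5.05 RPKM in the control and 5 RPKM with ATF3, TYR was listed at 0 and SOX10 at 0.06 and 0.05 RPKM, and S100A1 was the highest at 3.6 and 3.42 RPKM. Endothelial, leukocyte, fibroblast and keratinocyte markers (15 of 16 listed) stayed under 1 RPKM apart from LYZ (1.28 and 2.07 RPKM) and LUM (7.67 and 7.92 RPKM) in A2058. In either line, fewer cells expressing a gene and less RNA per cell cannot be told apart.

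Promoter windows were available in the RefSeq table for 8 of the 10 genes (BAK1, BAX, BBC3, BCL2, BCL2A1, BCL2L1, BCL2L11 and PMAIP1), 9 windows in all, build GRCh38.p14; BIK and MCL1 had none. The 250 bases before the start are printed 5′ to 3′ for the genes with the 2 highest ratios in C8161, BCL2L1 and PMAIP1, and the highest in A2058, BCL2A1. Capitals mark letters of sites that ATF and AP-1 factors are known to recognise, searched on both strands: TGACG, which is also contained in the full cyclic AMP response element TGACGTCA, the AP-1 site TGANTCA, and TGATGNAA, the core of the composite element bound by ATF4 dimers. BCL2L1 has 2 windows; the one printed is chr20:31723964-31724213 on the minus strand, and the other, inside the annotated gene, held none of the letters searched. The window of PMAIP1 is chr18:59899746-59899995 on the plus strand and that of BCL2A1 chr15:79971197-79971446 on the minus strand.
BCL2L1: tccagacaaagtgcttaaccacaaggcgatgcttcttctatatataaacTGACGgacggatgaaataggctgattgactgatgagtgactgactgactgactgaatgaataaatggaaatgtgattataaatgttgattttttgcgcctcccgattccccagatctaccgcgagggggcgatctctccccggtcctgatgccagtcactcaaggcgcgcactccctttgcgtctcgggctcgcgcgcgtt
PMAIP1: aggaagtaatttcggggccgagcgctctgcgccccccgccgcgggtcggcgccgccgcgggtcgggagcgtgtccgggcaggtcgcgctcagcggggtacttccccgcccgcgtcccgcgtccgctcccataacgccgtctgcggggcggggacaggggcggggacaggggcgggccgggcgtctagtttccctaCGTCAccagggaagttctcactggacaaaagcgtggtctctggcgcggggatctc
BCL2A1: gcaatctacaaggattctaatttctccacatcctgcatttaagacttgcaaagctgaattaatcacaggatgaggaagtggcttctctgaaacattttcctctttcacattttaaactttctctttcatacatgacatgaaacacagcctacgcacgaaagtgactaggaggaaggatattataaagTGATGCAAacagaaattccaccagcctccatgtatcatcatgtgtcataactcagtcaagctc

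The match in BCL2L1 was TGACG at positions -201 to -197 counted from the start, in PMAIP1 its reverse complement at -55 to -51, and in BCL2A1 TGATGCAA at -63 to -56. TGACG was present in 4 of the 9 windows, those of BAX, BCL2, BCL2L1 and PMAIP1, and in 21.2% of all 35116 promoter windows of the table. The full element was in none of the 9 and in 1.65% of all. TGATGNAA was in the BCL2A1 window alone and in 3.14% of all, and TGANTCA in the BBC3 window alone and in 6.57% of all. The E-box CACGTG occurred 4 times in the BAX window, 1 of these overlapping TGACG, and once in that of BBC3, against 6.35% of all windows with at least 1. A match is a run of letters and not a measured site.

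The levels kept nearly the same order in the 2 arms of a line and differed between the lines. BAX led in every column, at 86.56 RPKM in the A2058 control, 87.8 with ATF3, 106.06 in the C8161 control and 105.11 with ATF3. MCL1, the short-lived anti-apoptotic member, was second everywhere, at 40.11, 42.84, 100.3 and 102.29 RPKM in the same order of columns. In A2058 it lay close to BAK1 (35.5 and 37.95 RPKM), whereas in C8161 it lay within 1.06-fold of BAX. BCL2A1 (16.91 RPKM) and BCL2L1 (16.44 RPKM) stood side by side in the A2058 control, 1.03-fold apart. In the C8161 control BCL2L1 was the third at 76.21 RPKM and BCL2A1 the fifth at 14.2 RPKM. PMAIP1 was sixth in all 4 columns, between 9.45 and 12.64 RPKM. BCL2, which gives the family its name, was eighth in all 4 columns, between 2.02 and 2.71 RPKM. BBC3 stayed between 1.55 and 2.5 RPKM. In A2058 steps of 1.08-fold or less separated the last 3 genes, BCL2, BBC3 and BIK, and BIK and BBC3 changed places between the arms.

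**Figure D1:**
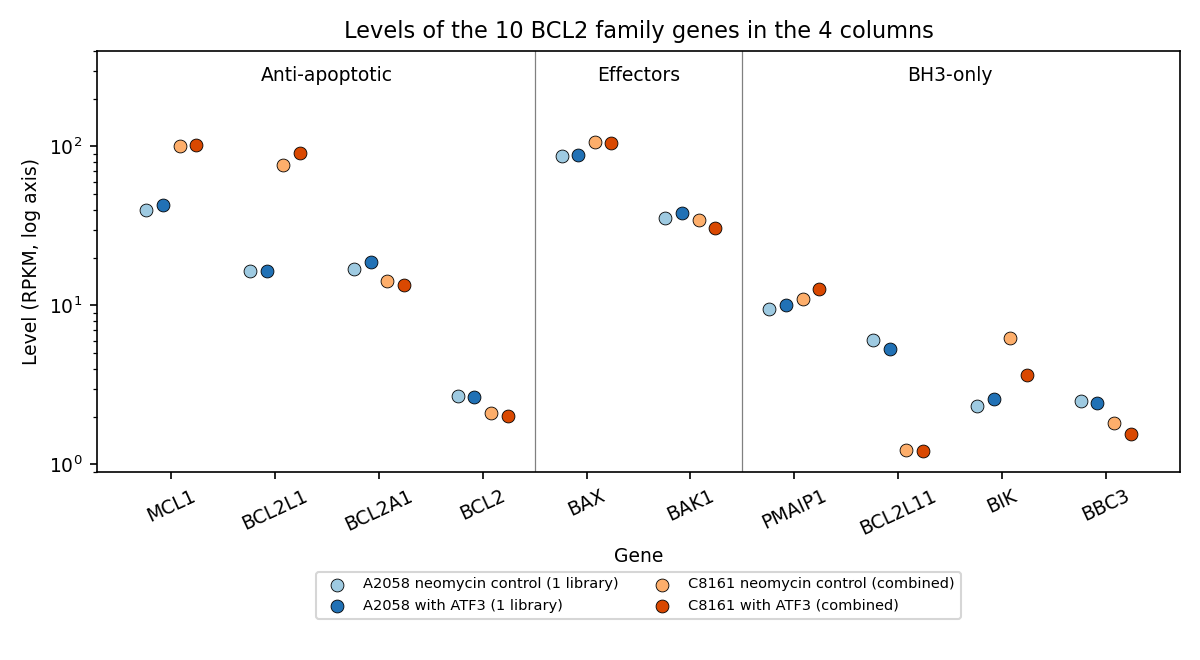
Level of each of the 10 genes (RPKM, log axis) in the A2058 control, A2058 with ATF3, C8161 control and C8161 with ATF3 columns, 1 point per column with no error bar. BCL2L1 and MCL1 sit higher in both C8161 columns than in both A2058 columns, BCL2L11 sits lower, and BIK is highest in the C8161 control at 6.23 RPKM.

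The first comparison asks how the family differs in C8161 when ATF3 is introduced. BIK, a BH3-only protein of the endoplasmic reticulum and mitochondria, was the 1 member outside the usual range of genes of its level, and it was lower. It was at 3.64 RPKM with ATF3 against 6.23 RPKM in the control, 1.71-fold lower. The log2 ratio, taken as log2(RPKM + 1) with ATF3 minus the control, was -0.64, and only 2 of the 10941 genes compared (those with at least 1 RPKM in either column) had a lower one. The central 95% of the 500 genes nearest in level ran from -0.23 to 0.27. The gene (chromosome 22, 43110750 to 43129712, GRCh38) has 953 annotated exon bases, shares none of its 50-base stretches with another gene and overlaps no exon of another. The comparison between lines below shares this control column, in which BIK was at its highest level.

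BCL2L1 had the highest ratio. Its level was 90.75 RPKM with ATF3 against 76.21 RPKM, 1.19-fold higher, with a log2 ratio of 0.249, inside the central range of its level (-0.26 to 0.26). BCL-xL is its main product, but a shorter splice form is pro-apoptotic, and a value per gene does not separate them. Exons of the antisense gene ABALON cover 43.0% of the exon bases of BCL2L1, and because the strand setting is not given, reads of the pair cannot be told apart. PMAIP1 was at 12.64 against 11 RPKM, a log2 ratio of 0.18. NOXA, its product, mainly neutralises MCL1, and MCL1 was at 102.29 against 100.3 RPKM, a log2 ratio of 0.03. The other anti-apoptotic genes were close to their controls, BCL2A1 at 13.49 against 14.2 RPKM and BCL2 at 2.02 against 2.11 RPKM. Of the effectors, BAX was at 105.11 against 106.06 RPKM and BAK1 at 30.85 against 34.34 RPKM, a log2 ratio of -0.15. For BAK1, 12.8% of the 50-base stretches also occur in other genes, with BAK1P1 sharing the most. BCL2L11 was at 1.22 against 1.24 RPKM, and BBC3 at 1.55 against 1.81 RPKM, a log2 ratio of -0.14.

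A size of 0.25 on the log2 scale, about 1.19-fold, was used to count genes. In C8161, 1 of 10 members passed it, BIK, where 5.78% of all genes compared did so (2.58% higher and 3.20% lower). BCL2L1, at 0.249, lay just short of it and passed under 3 of 5 other settings, with 0.252 at a pseudocount of 0.1 RPKM, 0.258 after quantile normalization and 0.315 once trends with GC and transcript length were taken out. The median ratio of the 10 members was -0.03, against 0.01 for all genes. Spearman's rho between the C8161 ratio and GC content was -0.42 over 10861 genes, and genes are not replicates. BBC3, with 69.7% GC the richest of the members, went from -0.14 to 0.07 when these trends were removed. BAX went from -0.01 to 0.09 and MCL1 from 0.03 to 0.00, so the directions of these 3 genes are not settled by the values. BIK went from -0.64 to -0.55.

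In A2058, where ATF3 itself was 3.86-fold higher, no member reached the same size, and 4.19% of all 11883 genes compared did (2.34% higher and 1.85% lower). All 10 lay inside the central 95% of their level. BCL2A1 had the highest ratio, at 18.84 RPKM with ATF3 against 16.91 RPKM, a log2 ratio of 0.15. BCL2L11 had the lowest, at 5.32 against 6.1 RPKM and -0.17. MCL1 (42.84 against 40.11 RPKM), BAK1 (37.95 against 35.5 RPKM) and PMAIP1 (10.12 against 9.45 RPKM) each had a log2 ratio of 0.09. BIK was at 2.57 against 2.33 RPKM, a log2 ratio of 0.10. BCL2L1 was at 16.37 against 16.44 RPKM, BAX at 87.8 against 86.56, BCL2 at 2.66 against 2.71 and BBC3 at 2.44 against 2.5 RPKM.

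The estimated depth gives these A2058 values an approximate counting error, which leaves out any difference between libraries beyond counting and assumes the longest transcript as the length. BIK rested on about 41 reads in the control and 45 with ATF3, and its log2 fold of 0.141 (without the added 1) had a counting standard error of 0.31. BBC3 rested on about 85 and 83 reads, with a fold of -0.035 and an error of 0.22. BCL2L11 had a fold of -0.197 with an error of 0.087 (about 590 and 510 reads). MCL1 had a fold of 0.095 with an error of 0.037 (about 2900 and 3100 reads). Their log2 ratios lay inside the central range of their level, -0.25 to 0.26 for BCL2L11 and -0.12 to 0.15 for MCL1. With 1 library per arm, variation between cultures could not be measured. These errors therefore do not show whether either gene differs with ATF3. For BCL2A1 the fold was 0.156 with an error of 0.11. Of the 10 genes, BIK thus had the widest counting error in A2058.

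**Figure D2:**
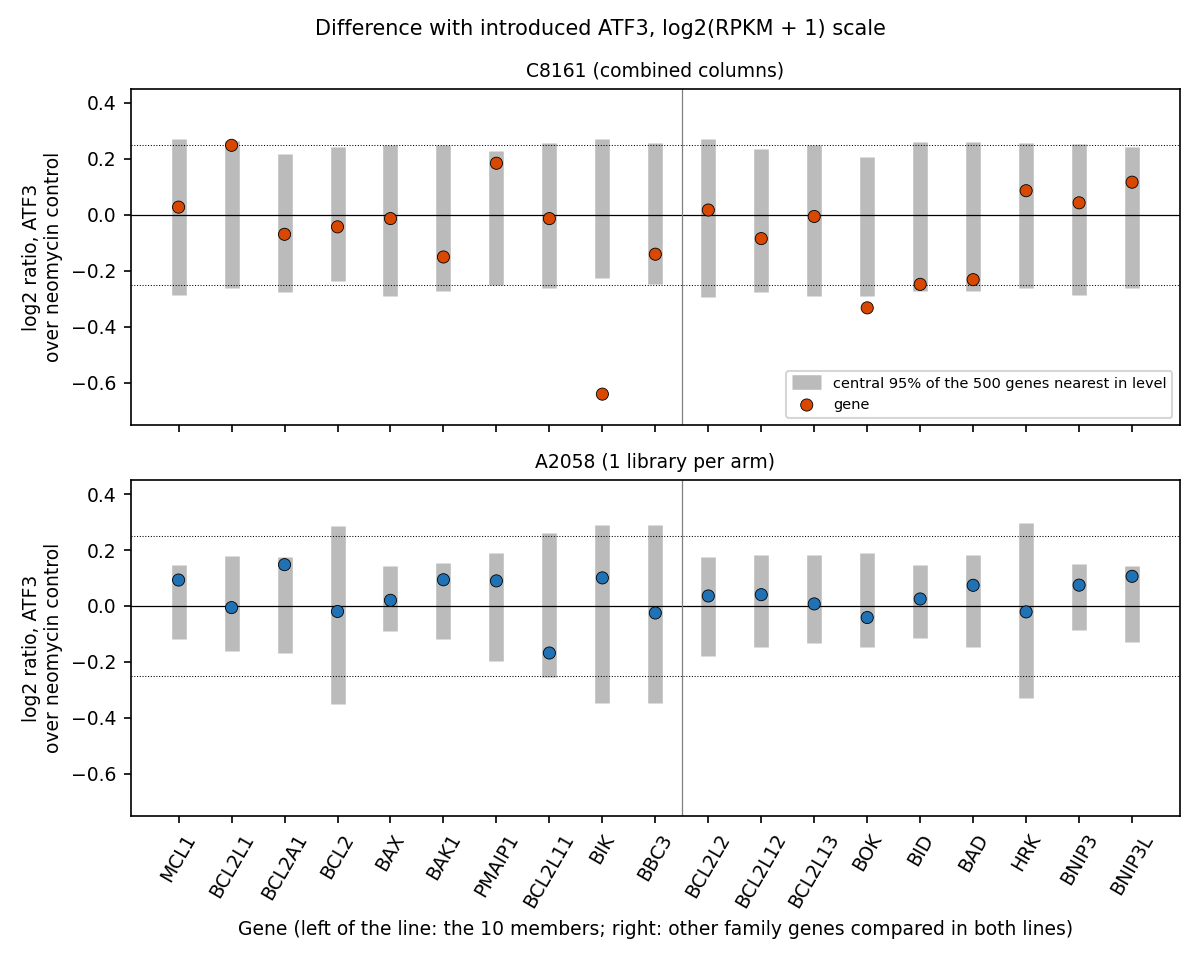
Log2 ratio of ATF3 over neomycin control for the 10 members and the 9 other family genes compared in both lines, C8161 above and A2058 below; grey bars show the central 95% of the 500 genes nearest in level and dotted lines mark 0.25. BIK at -0.64 and BOK at -0.33 lie below their grey bars in C8161, and every A2058 point lies inside its bar.

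Set side by side, several ratios lay so near 0 that their sign changed under other settings. These were BBC3, BAX and MCL1 in C8161, and BAX and BCL2 in A2058, so matching signs were not counted. BIK differed most, with -0.64 in C8161 and 0.10 in A2058. BCL2L1 followed, with 0.249 against -0.01, and then BAK1, with -0.15 against 0.09. With the GC and length trends taken out, BAK1 was at -0.06 against 0.07 and BCL2A1 at -0.08 against 0.14. The place of BAK1 therefore depends on that setting. ATF3 itself was at unlike levels in the 2 lines, 62.57 and 4.71 RPKM, so these are not matched doses, and the difference itself could not be tested.

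Larger differences separated the lines themselves, seen between their neomycin controls. Over 12372 genes the median log2 ratio of C8161 to A2058 was -0.19, and quantile normalization moved it by 0.26 to 0.08. Ratios relative to the median are therefore given in both versions. BCL2L1 was 4.64-fold higher in C8161, at 76.21 against 16.44 RPKM, a log2 ratio of 2.15, or 2.33 and 2.18 relative to the median as deposited and after quantile normalization. MCL1 was 2.50-fold higher, at 100.3 against 40.11 RPKM, with relative ratios of 1.49 and 1.29. BIK was 2.67-fold higher, at 6.23 against 2.33 RPKM, with relative ratios of 1.30 and 1.43. BCL2L11, whose product BIM is a broad activator of apoptosis held in check by MAPK signalling, was 4.92-fold lower, at 1.24 against 6.1 RPKM, with relative ratios of -1.48 and -1.32. So 2 anti-apoptotic genes and 1 BH3-only gene were higher in C8161, and 1 BH3-only gene was lower. Exons of the opposite-strand gene MIR4435-2HG cover 10.9% of the exon bases of BCL2L11, and the strand setting is not given.

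These 4 of 10 members passed a log2 ratio of 1, where 30.0% of all genes did. For 3 members higher the background was 9.36%, and for 1 lower it was 20.7%. BCL2L1 lay above the central 95% of its level (-2.07 to 1.62), and 97.0% of all genes had a lower ratio. MCL1, at 1.30 against an upper edge of 1.33, lay just inside. The other members differed little. BAX was at 106.06 against 86.56 RPKM and PMAIP1 at 11 against 9.45 RPKM, both slightly higher in C8161 in both scalings, but PMAIP1 went from 0.20 to -0.10 with the GC and length trends taken out, so its direction depends on that setting. BCL2A1, at 14.2 against 16.91 RPKM, was slightly lower in both. The relative ratios of BCL2 (2.11 against 2.71 RPKM), BBC3 (1.81 against 2.5 RPKM) and BAK1 (34.34 against 35.5 RPKM) changed sign with the scaling, and no direction is given for them.

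The arms with ATF3 gave the same picture for 3 of these 4 genes. There BCL2L1 was 5.54-fold and MCL1 2.39-fold higher in C8161, and BCL2L11 was at 1.22 RPKM against 5.32 RPKM in A2058. BIK was 1.42-fold higher, a log2 ratio of 0.38 in place of 1.12.

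**Figure D3:**
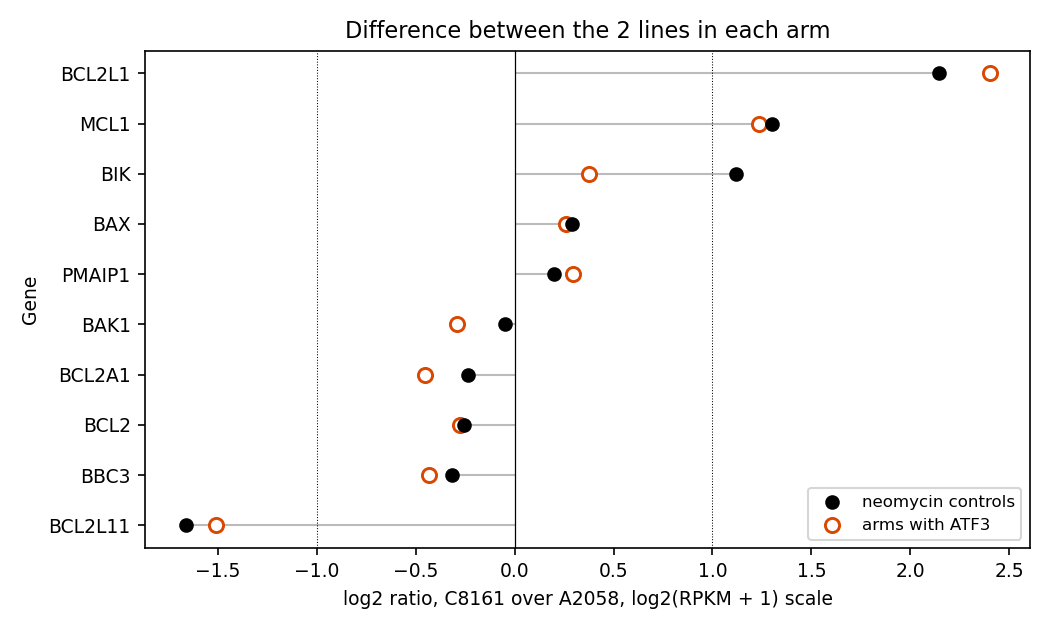
Log2 ratio of C8161 over A2058 for each member, between neomycin controls (filled) and between arms with ATF3 (open), with dotted lines at -1 and 1. BCL2L1 lies farthest right (2.15 and 2.40), BCL2L11 farthest left (-1.66 and -1.51), and the BIK points are the farthest apart (1.12 and 0.38).

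Some transcription factors known to act on the family also differed between the control columns of the lines. MITF was at 54.02 RPKM in the A2058 control and 0.95 RPKM in C8161, whereas BCL2A1 was at 16.91 and 14.2 RPKM. JUN, an AP-1 subunit, was at 3.1 RPKM in A2058 and 120.69 RPKM in C8161. DDIT3, the stress factor CHOP, was at 15.59 and 45.58 RPKM, and MYC at 42.48 and 107.25 RPKM. STAT3, at 54.06 RPKM in A2058 and 21.91 RPKM in C8161, and FOXO1, at 4.82 and 1.49 RPKM, were lower in C8161, as MITF was. Of the 12 factors listed, 3 were higher and 5 lower in C8161 by a log2 ratio of 1 or more, against 9.36% and 20.7% of all genes. The part of these factors in the levels of the members was not tested.

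Neighbouring genes on the chromosome mostly had other line ratios than the members past a log2 ratio of 1. BCL2L1 (chromosome 20, 31664452 to 31723963) lay above all 6 genes within 500 kb that had at least 1 RPKM in a control. Of these, 5 had a ratio above 0, with TPX2, a spindle factor, at 130.1 against 60.88 RPKM and ID1 at 70.86 against 59.35 RPKM, and the median of the 6 was 0.37. MCL1 (chromosome 1, 150574558 to 150579610) lay above all 25 of its neighbours, whose median was -0.64. GOLPH3L (9.43 against 4.21 RPKM) and ENSA (105.32 against 67.74 RPKM) started 71.7 and 46.7 kb from MCL1 and also had ratios above 0. On the other side ADAMTSL4 (0.25 against 1.42 RPKM) and ECM1 (3.46 against 81.07 RPKM), 25.2 and 66.4 kb away, had ratios of -0.95 and -4.20. Farther out each side held both directions. TARS2 (0.10) and PRPF3 (0.85) lay on the side of ECM1, and HORMAD1 (-1.42) and CTSK (-2.72) on that of ENSA. BIK lay above 7 of 8 neighbours in the line ratio, below A4GALT (1.89 RPKM, listed at 0 in A2058), and their median was -0.63. With ATF3 in C8161, BIK lay below all 8, of which TSPO (111.09 against 134.2 RPKM, log2 ratio -0.27) and TTLL12 (31.35 against 37.44 RPKM, -0.25) were the lowest. BCL2L11 had 1 such neighbour, BUB1, at 33.71 RPKM in C8161 against 27.29 RPKM.

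**Figure D4:**
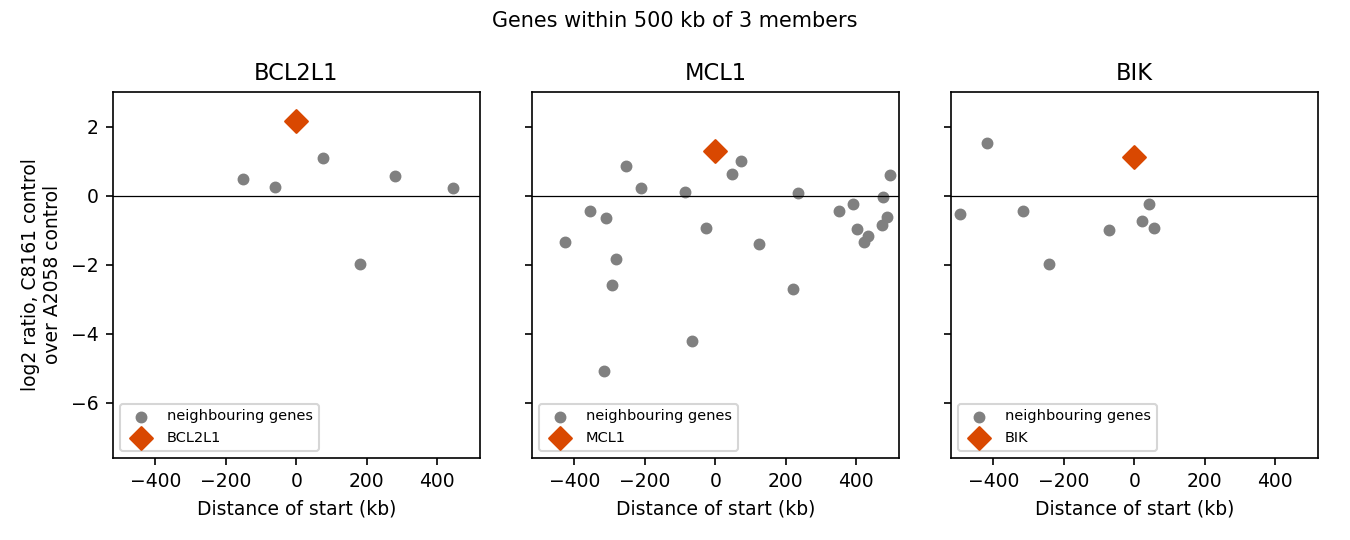
Log2 ratio of the C8161 over the A2058 control against the distance of a gene's start (kb) from that of BCL2L1, MCL1 or BIK; diamonds mark the member and grey points its neighbours with at least 1 RPKM in a control. BCL2L1 at 2.15 and MCL1 at 1.30 lie above every neighbour shown, and BIK at 1.12 lies above all but 1.

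Summed by class, the anti-apoptotic genes (here also BCL2L2 and BCL2L10) reached 90.68 RPKM in the A2058 control, 95.7 with ATF3, 202.39 in the C8161 control and 218.25 with ATF3. MCL1 made up 44.2% of that sum in the A2058 control and 49.6% in the C8161 control. BCL2L1 made up 18.1% and 37.7%, and with ATF3 in C8161 41.6%. BCL2A1 went the other way, from 18.6% in the A2058 control to 7.02% in the C8161 control, although its own level differed little. BCL2 was at 2.99% and 1.04%. The effectors with BOK summed to 149.11, 152.01, 181.32 and 168.27 RPKM in the same order, and BAX was between 57.8% and 62.5% of it. The BH3-only genes summed to 95.62, 97.97, 89.69 and 77.99 RPKM. The ratio of the anti-apoptotic to the BH3-only sum was 0.948 and 0.977 in A2058 and 2.26 and 2.80 in C8161. BID and BAD, which are not among the 10, held 49.0% and 26.0% of the BH3-only sum in the A2058 control, and BIK, BCL2L11, BBC3 and PMAIP1 together a smaller part. Transcript levels do not give protein levels, and proteins such as MCL1 and NOXA are known to turn over quickly.

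**Figure D5:**
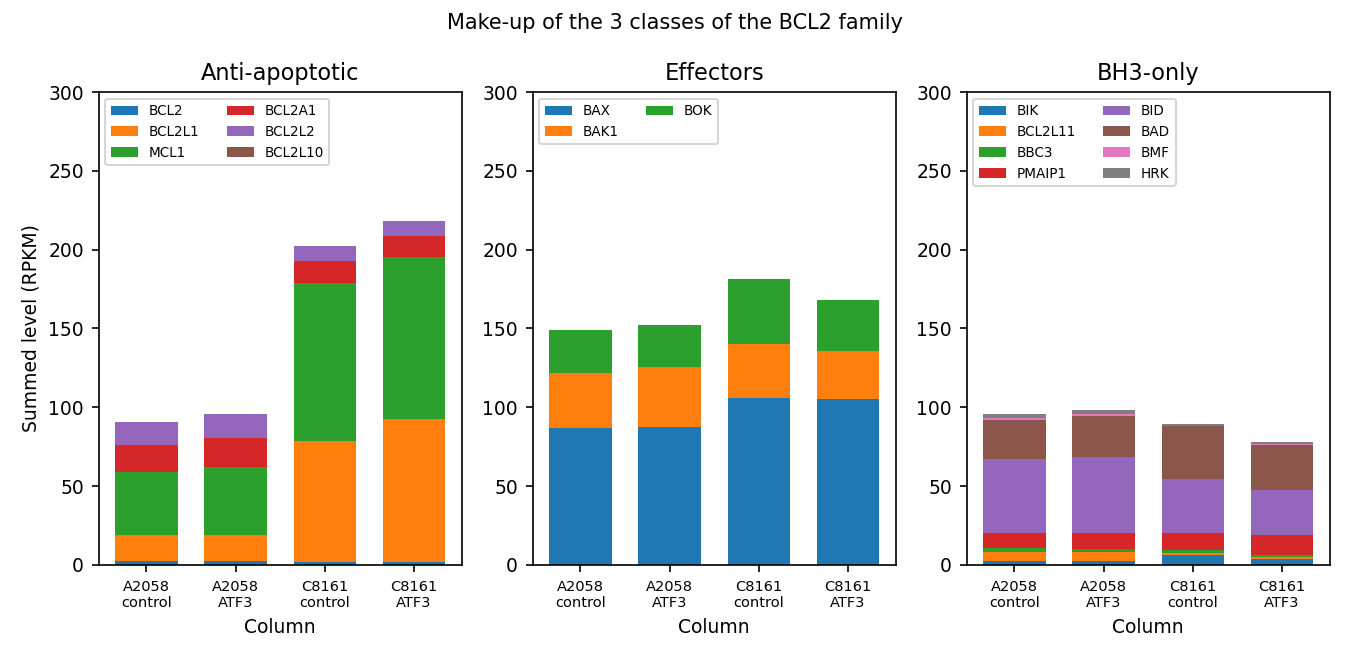
Stacked bars of RPKM by gene for the anti-apoptotic, effector and BH3-only classes in each of the 4 columns, on a common scale from 0. The anti-apoptotic bars of C8161 (202.39 and 218.25 RPKM) exceed those of A2058 (90.68 and 95.7 RPKM) through BCL2L1 and MCL1, whereas the other classes differ less.

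The 13 other genes of the family were all in the table, and 9 could be compared in C8161. Of these, 1 was lower with ATF3 by 0.25 or more and none was higher, with a median of -0.01. Over all genes compared, 3.20% were lower and 2.58% higher by that much. It was BOK, a BAX relative, at 32.31 RPKM against 40.92 RPKM (log2 ratio -0.33, or -0.17 with the GC and length trends taken out; its longest transcript has 66.0% GC). BID, the BH3-only link from caspase 8 to mitochondria, was at 28.57 against 34.11 RPKM (-0.248). BAD, the BH3-only protein controlled by survival kinases, was at 28.71 against 33.87 RPKM (-0.23, or -0.04 with the trends taken out). In A2058 none of 10 passed in either direction, where 4.19% of all genes did. There BOK, BID and BAD were at 26.26, 47.71 and 26.24 RPKM with ATF3 against 27.05, 46.87 and 24.88 RPKM. BCL2L2, the anti-apoptotic BCL-w, was at 14.51 RPKM in the A2058 control and 9.54 RPKM in that of C8161; 15.2% of its 50-base stretches also occur in the read-through gene BCL2L2-PABPN1. Between the lines 1 gene of 10 passed a log2 ratio of 1, where 30.0% of all genes did. It was BNIP3L, a mitophagy receptor, at 10.35 RPKM in C8161 against 30.62 RPKM. With the GC and length trends taken out, BOK and BAD passed it as well. BOK, at 40.92 against 27.05 RPKM, went from 0.58 to 1.22. BAD, at 33.87 against 24.88 RPKM, went from 0.43 to 1.07. Under that setting 27.8% of all genes passed. BNIP3, a relative of BNIP3L, was at 89.89 and 98.86 RPKM, BCL2L12 at 25.23 and 25.08 RPKM and BCL2L13 at 21.09 and 22.1 RPKM. HRK (1.26 and 2.45 RPKM) and BMF (0.17 and 1.04 RPKM) were low, and BCL2L10, BCL2L14 and BCL2L15 stayed at 0.2 RPKM or less in all 4 columns.

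Downstream of the family, the apoptosome and caspase list had 1 of 12 genes lower by 0.25 or more in C8161 with ATF3 and none higher, with a median of -0.01. Over all C8161 genes compared, 3.20% were lower and 2.58% higher by that much. It was HTRA2, a mitochondrial protease, at 11.49 against 13.93 RPKM (log2 ratio -0.26, or -0.15 with the GC and length trends taken out, inside the size). In A2058, 2 of 12 were higher: CASP9, the initiator caspase of the apoptosome, at 6.48 against 4.94 RPKM, and DFFB, the apoptotic nuclease, at 4.2 against 3.34 RPKM. With the trends taken out CASP9 was at 0.32 and DFFB at 0.243, inside the size, and 2.34% of all A2058 genes were higher by 0.25 or more. None of the 12 passed a log2 ratio of 1 between the lines, where 30.0% of all genes did (9.36% higher and 20.7% lower in C8161). Inhibitors of apoptosis had 1 of 6 higher in C8161, BIRC3 at 4.68 against 3.69 RPKM (log2 ratio 0.28, or 0.22 with the trends taken out, inside the size), and none past the size in A2058. Between lines 2 of these 7 were higher in C8161, BIRC3 (3.69 against 0.28 RPKM) and BIRC2 (30.56 against 9.65 RPKM), and 1 was lower, BIRC7, the melanoma inhibitor of apoptosis, listed at 0 in C8161 and at 3.68 RPKM in A2058. Among genes of MCL1 turnover none of 7 passed in C8161. In A2058 FBXW7, a ubiquitin ligase subunit that targets MCL1, was the single gene past the size, at 3.26 against 4.12 RPKM. Of all A2058 genes, 1.85% were lower by 0.25 or more. The deubiquitinase USP13 was the single one past a log2 ratio of 1 between lines, at 17.41 RPKM in C8161 against 6.01 RPKM. The transcription factor list had none past 0.25 in C8161 or A2058 as deposited; with the trends taken out DDIT3 in C8161 went from 0.22 to 0.254.

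The genes most like BIK and BCL2L1 over the 4 columns were found by the smallest Euclidean distance between log2(RPKM + 1) values centred per gene, among 12427 genes. For BIK they were AMIGO2 (7.57, 8.05, 16.99 and 12.55 RPKM in the A2058 control, A2058 with ATF3, C8161 control and C8161 with ATF3; distance 0.182), H4C11 (listed at 0 in both A2058 columns, then 1.17 and 0.58 RPKM; 0.203) and ACTG1 (877.75, 883.14, 1682.05 and 1305.15 RPKM; 0.204). For BCL2L1 they were NR2F2 (8.79, 8.91, 43.21 and 49.46 RPKM; 0.046), TMCC3 (0.06, 0.02, 3.65 and 4.33 RPKM; 0.053) and SQLE (11.98, 12.26, 59.89 and 69.07 RPKM; 0.059). With 4 columns, likeness of this kind is a description only.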

How the data were processed

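RNA-seq values were available as 1 table of RPKM made by the authors, per the file headers, with 2 decimals: 2 columns for the A2058 libraries and 2 combined columns for the C8161 arms. The tools were Bowtie2 and RSEM on hg38, per the submitters' processing notes; annotation, strand setting and way of combining: not given in the sources used here. The planned limma test needs a value per library and could not be run. Of the table's identifiers, 18156 had a symbol in RefSeq (GRCh38.p14), and GC content and length came from GENCODE 29 for 17850 genes and all 10 members.

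Ratios were differences of log2(RPKM + 1) over genes with at least 1 RPKM in either column, computed with pandas 2.3.3 and checked on simulated data. Trends with GC content and length were removed by lowess (fraction 0.3, statsmodels 0.14.6). Depth came from the steps of values from 0.04 to 0.3 RPKM in transcripts of 400 to 1500 bases. The members and lists were chosen with earlier results of these data known. Named genes were the 10 members, ATF3, all other family genes, up to 3 genes with the largest ratios per list and comparison, neighbours within 500 kb and the 3 most alike genes; TNFRSF10A, TNFRSF10B, MYC, STAT3 and FOXO1, and which neighbours to name, were chosen after their values were seen. Other settings were a pseudocount of 0.1 RPKM, no minimum, a minimum of 5 RPKM, quantile normalization and removal of the trends. The values of 1 gene of the transcription factor list are not reported here.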

Additional observations from a re-analysis of the deposited data

Results flagged for a closer look

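The log2 ratios of BIK were -0.64 in C8161 and 0.10 in A2058, a difference of -0.74. Those of BCL2L1 were 0.249 in C8161 and -0.01 in A2058, a difference of 0.255. In A2058 the folds without the added 1 were smaller than their counting errors, so no direction is given there. They were 0.141 with an error of 0.31 for BIK and -0.006 with an error of 0.073 for BCL2L1. Each difference rests on 1 value per arm, and neither was tested.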

How the results depend on the processing

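No paired analysis was possible because the C8161 libraries of an arm share 1 combined column and A2058 has 1 library per arm; for the same reason no library could be left out. The count of members past 0.25 in C8161 was 1 as deposited and 2 with a pseudocount of 0.1 RPKM, with quantile normalization and with GC and length trends removed, since BCL2L1 then joined BIK. Those settings put 9.44%, 4.91% and 4.22% of all genes past that size. It stayed 1 without a minimum and with a minimum of 5 RPKM. The A2058 count stayed 0 and the count between lines 4 under all 5 settings, with the same 4 genes; a minimum of 5 RPKM took the share of all A2058 genes past 0.25 from 4.19% to 1.85%. The share of BID in the BH3-only sum of the A2058 control was 49.0% as deposited and 50.7% after quantile normalization. The direction of BBC3, BAX and MCL1 in C8161, of BAX and BCL2 in A2058, and of BCL2, BBC3, BAK1 and PMAIP1 between lines, changed under at least 1 setting; none of these passed the size. Depth limits BIK and BBC3 most, with about 41 and 85 reads in the A2058 control.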

Other observations

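Like genes at large, receptors upstream of BID had wider ratios between the lines than with ATF3. Of 8 death receptor genes and adaptors, 3 were higher in the C8161 control by a log2 ratio of 1 or more and none was lower: TNFRSF10D, a decoy receptor for the ligand TRAIL, at 39.83 RPKM against 0.02 RPKM in the A2058 control, TNFRSF1A, the main TNF receptor, at 192.25 against 52.32 RPKM, and FAS at 6.21 against 2.33 RPKM. Of all genes, 9.36% were higher by that much and 20.7% lower. With GC and length trends taken out, FAS went from 1.11 to 0.85. The signalling TRAIL receptors TNFRSF10A (5.5 and 4.95 RPKM) and TNFRSF10B (25.56 and 24.13 RPKM) were close in the controls. With ATF3 none of the receptor genes passed 0.25 in either line, where 5.78% of all genes did in C8161 and 4.19% in A2058.

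Among 9 partners of the family at the outer membrane and endoplasmic reticulum, 1 passed a log2 ratio of 1 between lines. It was the calcium channel ITPR2, at 2 RPKM in C8161 against 5.92 RPKM in A2058. Of all genes, 30.0% passed that size and 20.7% were lower in C8161 by it. None passed 0.25 with ATF3 in either line as deposited, where 5.78% of all genes did in C8161 and 4.19% in A2058. With the GC and length trends taken out, BCAP31 in C8161 went from 0.17 to 0.265. Under that setting 4.22% of all C8161 genes passed.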
